A study of Mus musculus with 2 samples.

Results

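The genes described here are *Klf6*, *Jun*, *Junb*, *Jund*, *Fos*, *Egr1*, *Atf3*, *Ier2* and *Ier3*, 9 of the 32285 gene rows in each count table, found by their symbol in both sections. They were chosen by measured values, namely their level in each section, their spread over spots and their position in the liver lobule, so these values are given as a description and were not tested. The data are 10x Visium spatial transcriptomics (ST), in which frozen tissue is laid on a slide of barcoded spots and the mRNA molecules captured at each spot are counted as unique molecular identifiers (UMIs). Each spot pools the RNA of a patch of neighbouring cells, of one type or more. One section, 10 µm thick, came from the liver of 1 normal chow diet (NCD) mouse and one from 1 high-fat diet (HFD) mouse.

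Both animals were male C57BL/6J mice bought at 5 weeks of age and acclimated for 1 week. The HFD mouse was fed a 60% high-fat diet for 14 weeks to induce non-alcoholic fatty liver disease while the NCD mouse was fed a normal diet, and both mice were then given distilled water by mouth for 8 weeks, as the untreated arms of a drug study. With 1 animal per diet, the diet, the animal, the section and the capture area cannot be told apart. The labels also name hematopoietic stem cells and immune cells, whereas the libraries were those of whole liver. The 8 hepatocyte markers summed to 119793 CPM (UMIs of the list per 1000000 UMIs of the section) in NCD and 137523 in HFD, the 4 general leukocyte markers to 78.6 and 125, and the 7 stem cell markers to 26.2 and 34.2, with 2 of these 7 at 0 in NCD.

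The members lie on several chromosomes of GRCm38. *Klf6* is at chr13:5861482-5870394, *Fos* at chr12:85473890-85477273, *Egr1* at chr18:34859823-34864984 and *Ier3* at chr17:35821684-35822923, all on the plus strand. *Jun* is at chr4:95049034-95052222 and *Atf3* at chr1:191170296-191218039, both on the minus strand. Chromosome 8 holds *Jund* at chr8:70698949-70700616 on the plus strand, and *Ier2* at chr8:84661331-84662852 and *Junb* at chr8:84974484-84978718 on the minus strand, with 311631 bases between the last pair. *Jun*, *Jund* and *Ier2* are annotated with 1 transcript of 1 exon, so their counts come from a single exon. *Jun* overlaps *Junos*, *Junb* overlaps *Prdx2* and *Jund* overlaps *Gm11175* on the opposite strand, and whether the counting used the strand is not given in the sources used here.

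Immediate early genes are transcribed within minutes of a stimulus, because the factors that switch them on already wait in the cell and need only be phosphorylated. *Fos*, *Jun*, *Junb*, *Jund* and *Atf3* encode basic leucine zipper proteins that pair up as AP-1 and related dimers, *Egr1* and *Klf6* encode zinc finger factors, and *Ier2* and *Ier3* encode small regulators of growth and survival signalling. In liver these genes are best known from regeneration after hepatectomy, from injury and from inflammation, and *Klf6* also from the activation of stellate cells.

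Promoter sequence from RefSeq on GRCm38.p6 was on hand for 7 of the 9 members, all but *Egr1* and *Ier2*. The bases before the annotated exon are shown for *Jun* and *Klf6*, which share an 8-base element, and for *Fos*, the AP-1 gene with the largest difference between the sections among the Fos and Jun members. Capitals mark TGACATCA and TGACGT, which are variants of the site that AP-1 and CREB proteins bind, and CCAAT or its reverse complement. The windows are chr4:95052223-95052472 (minus strand) for *Jun*, chr13:5861239-5861481 (plus strand) for *Klf6* and chr12:85473640-85473889 (plus strand) for *Fos*.
Jun: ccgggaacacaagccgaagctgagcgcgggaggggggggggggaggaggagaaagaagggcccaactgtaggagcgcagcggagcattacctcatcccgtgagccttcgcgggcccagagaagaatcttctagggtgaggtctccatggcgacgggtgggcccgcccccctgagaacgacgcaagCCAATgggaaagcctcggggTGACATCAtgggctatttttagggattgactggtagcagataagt
Klf6: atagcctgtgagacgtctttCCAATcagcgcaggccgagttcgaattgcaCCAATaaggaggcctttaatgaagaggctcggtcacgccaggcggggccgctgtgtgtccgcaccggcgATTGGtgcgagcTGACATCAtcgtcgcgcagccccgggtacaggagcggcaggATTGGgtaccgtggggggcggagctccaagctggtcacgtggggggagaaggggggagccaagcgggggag
Fos: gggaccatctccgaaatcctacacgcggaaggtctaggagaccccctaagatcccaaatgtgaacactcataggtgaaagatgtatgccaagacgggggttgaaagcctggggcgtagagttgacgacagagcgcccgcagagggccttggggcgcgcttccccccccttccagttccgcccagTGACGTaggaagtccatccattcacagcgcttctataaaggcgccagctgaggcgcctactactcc
TGACATCA stood 45 bases before the RefSeq start of *Jun* and 119 bases before that of *Klf6*, and in none of the other 5 windows searched. It was present on either strand in 2.93% of the 32851 mouse promoters in the same table, searched over the 250 bases before each start. TGACGT stood 66 bases before the start of *Fos*, in 1 of 7 windows, against 6.47% of all promoters. CCAAT was found in 4 of 7 windows (*Ier3*, *Jun*, *Junb* and *Klf6*), with 4 copies in *Klf6*, against 33.8% of all promoters. TGACTCA, the classic AP-1 site, and the CArG box, which serum response factor binds, were found in 0 of the 7 windows, against 4.46% and 1.47% of all promoters. These are matches of letters and not measured binding. The motifs were chosen after the windows were seen, so nothing is read from their counts beside the shares of all promoters. Bases further upstream, and *Egr1* and *Ier2*, were not searched, so a site absent from these windows may lie outside them.

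The NCD section had 29037988 UMIs over 3692 spots and the HFD section 72118803 UMIs over 3594 spots, with medians of 4187.5 and 18549 UMIs per spot. In NCD, 22.8% of the spots over tissue held fewer than 1000 UMIs, against 0.111% in HFD. Off tissue lay 19.1% of all UMIs of the NCD capture area, against 2.93% in HFD. The median spot off tissue held 3383 UMIs in NCD, against 4187.5 over tissue, and 1175.5 in HFD, against 18549. Spots off tissue in NCD were thus not a low background, and why was not tested. The sections share 3173 spot barcodes, which come from a fixed slide layout. All 9 members were detected in both sections, with 4181 UMIs in NCD and 20344 in HFD. *Fos*, *Atf3* and *Ier3* had only 84, 50 and 60 UMIs in NCD, so their position within that section is poorly determined.

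All 9 members had a higher level in HFD than in NCD, and 6 of the 9 by at least 2-fold. Summed over the members, the level was 144 CPM in NCD and 282 in HFD. Of the 11913 genes that reached 100 UMIs in the sum of the sections, all members included, 10.8% were at least 2-fold higher in HFD and 2.06% at least 2-fold lower. The median gene was 0.24 higher in HFD on the log2 scale, so ratios are best read against this shift. Since the choice of the members used this contrast, nothing is read from their count. Intervals in what follows are 95% intervals that cover the counting of UMIs only, not the spread between animals.

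*Atf3*, a stress-induced factor of the ATF and CREB family, stood at 1.72 CPM (1.28 to 2.27) in NCD and 9.48 (8.79 to 10.2) in HFD. Its ratio of 5.51-fold (4.13 to 7.50) was the largest of the 9, and 1.13% of these genes had a ratio as high or higher. *Fos*, the partner of the Jun proteins in AP-1, stood at 2.89 (2.31 to 3.58) and 11.8 (11.0 to 12.6), a ratio of 4.08-fold (3.26 to 5.17). These were the members with the largest ratios, and both had few UMIs in NCD.

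Among the Jun genes, *Junb*, which tends to dampen the activity of Jun, stood at 12.5 CPM (11.2 to 13.8) in NCD and 36.9 (35.5 to 38.3) in HFD, or 2.96-fold (2.65 to 3.31) higher. *Jun* itself stood at 20.9 (19.3 to 22.7) and 51.7 (50.1 to 53.4), or 2.47-fold (2.27 to 2.69) higher. *Jund*, the Jun gene that is expressed without a stimulus in many tissues, stood at 68.7 (65.7 to 71.8) and 106 (104 to 108), or 1.54-fold (1.47 to 1.62) higher. Of the Jun genes, *Jund* had the highest level in both sections and the lowest ratio.

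*Klf6* stood at 6.68 CPM (5.77 to 7.69) in NCD and 19.2 (18.2 to 20.2) in HFD, a ratio of 2.87-fold (2.47 to 3.35). *Egr1*, a growth factor-responsive zinc finger factor, stood at 6.13 (5.26 to 7.10) and 14.1 (13.2 to 14.996), a ratio of 2.30-fold (1.96 to 2.71). The ratio of *Egr1* was the smallest of the 6 past 2-fold, its interval reached below 2-fold, and after the shift of the median gene is taken off it was 1.94-fold.

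The IER genes, with *Jund*, were the members under 2-fold. *Ier2* stood at 22.4 CPM (20.7 to 24.2) in NCD and 29.6 (28.3 to 30.9) in HFD, a ratio of 1.32-fold (1.21 to 1.44), and 37.5% of all genes had a ratio as high. *Ier3* stood at 2.07 (1.58 to 2.66) and 3.37 (2.96 to 3.82), a ratio of 1.63-fold (1.22 to 2.20). After the same shift is taken off, *Ier2* was 1.11-fold higher and *Ier3* 1.38-fold.

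**Figure D1:**
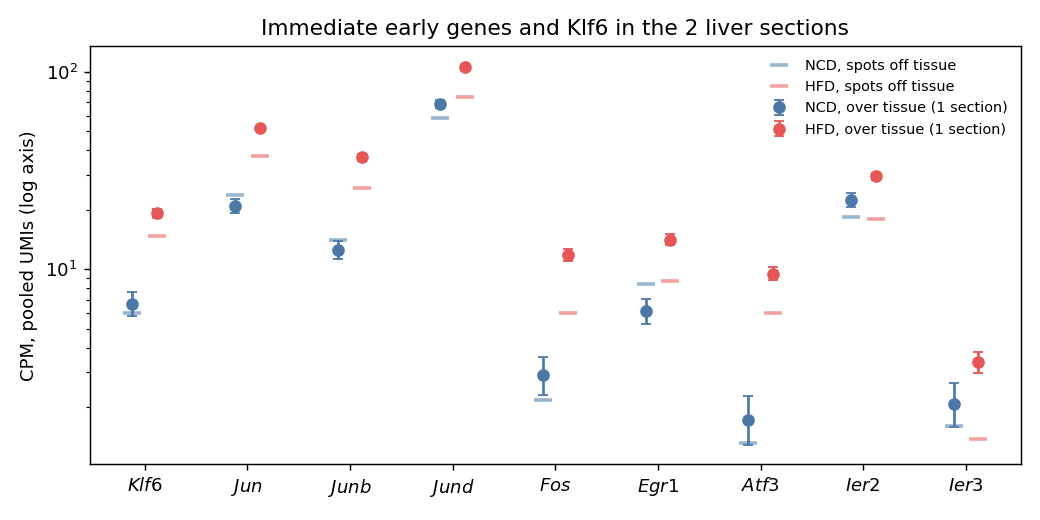
CPM (log axis) of the 9 members, pooled over the spots over tissue of the NCD and the HFD section, with 95% counting intervals, and short lines for the spots off tissue of the same capture area. All 9 HFD points lie above the NCD points, and in NCD the values off tissue lie above those over tissue for *Jun*, *Junb* and *Egr1*.

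Spots off tissue also held UMIs of the members, and the part of such RNA in the values over tissue was not tested. Off tissue, *Egr1* stood at 8.44 CPM in NCD, above its 6.13 over tissue, and *Jun* and *Junb* were also higher off tissue, at 23.9 and 14.1. The log2 ratio of over to off tissue in NCD had an interval below 0 for *Egr1* (-0.46, -0.90 to -0.01) and above 0 for *Jund* (0.24, 0.08 to 0.40) and *Ier2* (0.29, 0.01 to 0.58). In HFD all 9 ratios were above 0, between 0.38 for *Klf6* and 1.29 for *Ier3*, with intervals that held 0 for *Klf6*, *Atf3* and *Ier3*. With the mean count of the off-tissue spots subtracted for every spot over tissue, the log2 ratio of HFD to NCD was -0.010 for *Ier2* and 3.38 for *Egr1*, and between 0.23 and 2.06 for the other 7. Spots differ in depth, and with each spot weighted equally the ratio of *Egr1* turned to -0.50 on the log2 scale, with 71.6% of the mean in NCD coming from 1 spot in which 1 of 20 UMIs was *Egr1*. The ratio of *Atf3* rests on 50 UMIs in NCD and ranged from 0.60 to 4.68 on the log2 scale over the alternatives. The lowest came from spots thinned to 300 UMIs, and the highest from dropping the 1% of spots with most *Atf3*, which left 9 of the 50 UMIs.

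Other cell types also differed between the sections. Markers of smooth muscle summed to 48.6 CPM in NCD and 107 in HFD, with 8 of 8 genes higher in HFD and single markers between 0.551 and 17.8 in NCD and between 2.30 and 30.1 in HFD. Lipid-associated macrophage markers summed to 48.2 and 154, with 7 of 7 genes higher, stellate cell and fibroblast markers to 274 and 571, with 9 of 9 higher, and bile duct markers to 134 and 301, with 8 of 8 higher. Monocyte markers summed to 3.89 and 9.73, with 5 of 5 higher, and sinusoidal endothelial markers to 238 and 322, with 10 of 11 higher. Other lists were near level or lower in HFD. Kupffer cell markers summed to 217 and 220, with 3 of 7 genes higher, neutrophil markers to 16.2 and 12.1, with 1 of 4 higher, T cell markers to 16.3 and 10.8, with 0 of 5 higher, and B and plasma cell markers to 86.6 and 29.3, with 1 of 7 higher. None of these markers was at 0 in either section. Fewer cells of a type and less RNA per cell cannot be told apart in such sums. A set of 958 NCD and 1502 HFD spots was chosen after the data were seen. These spots had at least 3000 UMIs and were rich in none of 10 lists of non-hepatocyte markers. In them the log2 ratios of the members lay between 0.24 for *Ier3*, against 0.71 over all spots, and 2.69 for *Fos*, against 2.03. The part of cell types in the ratios was not tested.

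The spread over spots was described next. A *Jund* UMI was found in 33.6% of NCD spots and 80.7% of HFD spots, a *Jun* UMI in 13.1% and 58.1%, and a *Klf6* UMI in 4.93% and 28.8%. Such shares move with depth. With each spot of at least 3000 UMIs thinned to 3000 UMIs, which left 2107 NCD and 3538 HFD spots, *Jun* was found in 5.79% (4.83 to 6.87) and 14.2% (13.1 to 15.4) of spots, *Klf6* in 2.37% (1.77 to 3.12) and 5.85% (5.10 to 6.68), *Fos* in 0.664% (0.364 to 1.11) and 3.50% (2.92 to 4.16), and *Atf3* in 0.427% (0.195 to 0.809) and 2.57% (2.08 to 3.15). *Ier3* was found in 0.664% (0.364 to 1.11) and 0.763% (0.504 to 1.11), *Ier2* in 6.64% (5.62 to 7.79) and 7.74% (6.88 to 8.67) and *Egr1* in 2.09% (1.52 to 2.79) and 3.11% (2.56 to 3.74). These Clopper-Pearson intervals are over the spots of 1 section each and do not test the difference between the diets. The highest count in any HFD spot, taken for each gene on its own, was 12 UMIs for *Jund*, 9 for *Jun*, 7 for *Fos* and 6 for *Klf6*.

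In HFD the counts of *Fos* varied most beyond sampling, with a variance 1.27 times that of Poisson counting, followed by *Atf3* at 1.23 and *Egr1* at 1.20. The median over 11380 genes was 1.06, and 6.05% of genes had a value as high as that of *Fos*. *Ier2* at 1.11 and *Ier3* at 1.09 were the lowest of the members. Expressed as a coefficient of variation of the underlying level, this came to 1.20 for *Atf3* and 1.16 for *Fos*, against 0.342 for *Jun* and 0.184 for *Jund*. By this measure *Jund* and *Jun* were spread the most evenly over the HFD section, and *Atf3* and *Fos* the least.

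The liver lobule runs from the portal triad, where blood enters, to the central vein. To place the spots, those with at least 1000 UMIs were ordered by the log2 ratio of 6 pericentral genes (*Glul*, *Oat*, *Cyp2e1*, *Cyp1a2*, *Slc1a2*, *Rhbg*) to 6 periportal genes (*Cyp2f2*, *Sds*, *Hal*, *Ass1*, *Cps1*, *Pck1*) and split into 5 bins of equal size, with 570 or 571 spots each in NCD and 718 each in HFD. Genes kept out of the ordering followed it. The 7 other pericentral genes, *Gulo* and *Cyp27a1* among them, rose from 1965 to 4341 CPM across the HFD bins, while the 7 other periportal genes, *Arg1* and *Hsd17b13* among them, fell from 3782 to 1369.

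In HFD, *Fos*, *Egr1*, *Atf3* and *Ier2* were at least 1.5-fold higher at the periportal end than at the pericentral end. This held for 5.67% of the 11384 genes with at least 100 UMIs there, while 0 members and 7.93% of genes were 1.5-fold higher at the pericentral end. *Egr1* fell in every step, from 19.9 CPM in the most periportal bin through 14.6, 12.5 and 10.2 to 9.49 in the most pericentral bin, a log2 ratio of -1.07 (-1.37 to -0.78). *Fos* fell from 15.3 through 13.2, 11.5 and 9.32 to 7.53, a log2 ratio of -1.02 (-1.36 to -0.69). *Atf3* had a different course, flat at 11.1, 11.1 and 11.2 over the first 3 bins and then down to 7.36 and 5.73, a log2 ratio of -0.95 (-1.35 to -0.57). *Ier2* went from 36.5 to 23.7 with a log2 ratio of -0.62 (-0.82 to -0.43), and *Junb* from 39.7 to 32.2 with -0.30 (-0.47 to -0.13).

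For the other 4 members the interval held 0 in HFD. *Jun* was highest in the middle of the axis, at 58.4 CPM, and stood at 46.3 and 47.7 at its periportal and pericentral ends, a log2 ratio of 0.04 (-0.10 to 0.19). *Jund* had the same log2 ratio of 0.04 (-0.06 to 0.14), *Klf6* -0.22 (-0.46 to 0.02) and *Ier3* -0.08 (-0.67 to 0.48), so that changes of more than about 1.5-fold along the axis lie outside the intervals of *Jun*, *Jund* and *Klf6* but not of *Ier3*. Depth moved with position, with a median of 27835 UMIs per spot in the most periportal bin and 17798.5 in the most pericentral bin, and smooth muscle markers stood at 134 and 59.97 CPM at these ends. The part of depth in the gradients was not tested. With each spot weighted equally, the log2 ratios of *Fos*, *Egr1*, *Atf3* and *Ier2* were -0.95, -1.05, -1.07 and -0.70. Without the spots richest in smooth muscle, stellate cell or bile duct markers they were -0.90, -0.92, -0.62 and -0.45. With spots thinned to 1000 UMIs, *Fos* stood at -1.26, *Egr1* at -0.91 and *Ier2* at -0.33, *Atf3* was left with 5 UMIs at the pericentral and 4 at the periportal end, a log2 ratio of 0.32, and *Junb* turned to 0.21.

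In NCD the members had fewer UMIs, and 6 of the 9 reached 100 UMIs in the spots of the axis. *Junb* fell from 15.1 to 8.54 CPM between the periportal and the pericentral end, a log2 ratio of -0.82 (-1.37 to -0.28). *Ier2* fell from 30.0 to 19.9, with -0.59 (-0.96 to -0.22), and *Jund* from 84.1 to 62.6, with -0.42 (-0.64 to -0.21). *Atf3* had 16 UMIs at the periportal and 6 at the pericentral end, with -1.99 (-3.64 to -0.57). For *Fos* (-0.65, -1.64 to 0.33), *Egr1* (-0.68, -1.49 to 0.13), *Jun* (-0.23, -0.62 to 0.16), *Ier3* (-0.20, -1.50 to 1.15) and *Klf6* (0.81, -0.05 to 1.74) the interval held 0. In NCD, 5 members were at least 1.5-fold higher at the periportal end, against 4.26% of 8953 genes with at least 100 UMIs, and 2 of these 5, *Fos* and *Atf3*, were under that minimum. Another of them, *Egr1*, turned to 0.42 without the spots richest in smooth muscle, stellate cell or bile duct markers and to 1.00 with spots thinned to 1000 UMIs, from 4 UMIs at the pericentral and 2 at the periportal end. *Klf6* was the 1 member at least 1.5-fold higher at the pericentral end, against 14.1% of genes. Depth moved with position in NCD too, in the direction opposite to HFD. The median was 4243 UMIs per spot in the most periportal bin and 8681.5 in the most pericentral bin. Summed over the members, the level was 161 CPM in NCD spots of 1000 to 3000 UMIs and 129 in those of at least 20000. With spots thinned to 1000 UMIs the log2 ratio of the sum was -0.58. The part of depth in these NCD ratios was not tested.

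**Figure D2:**
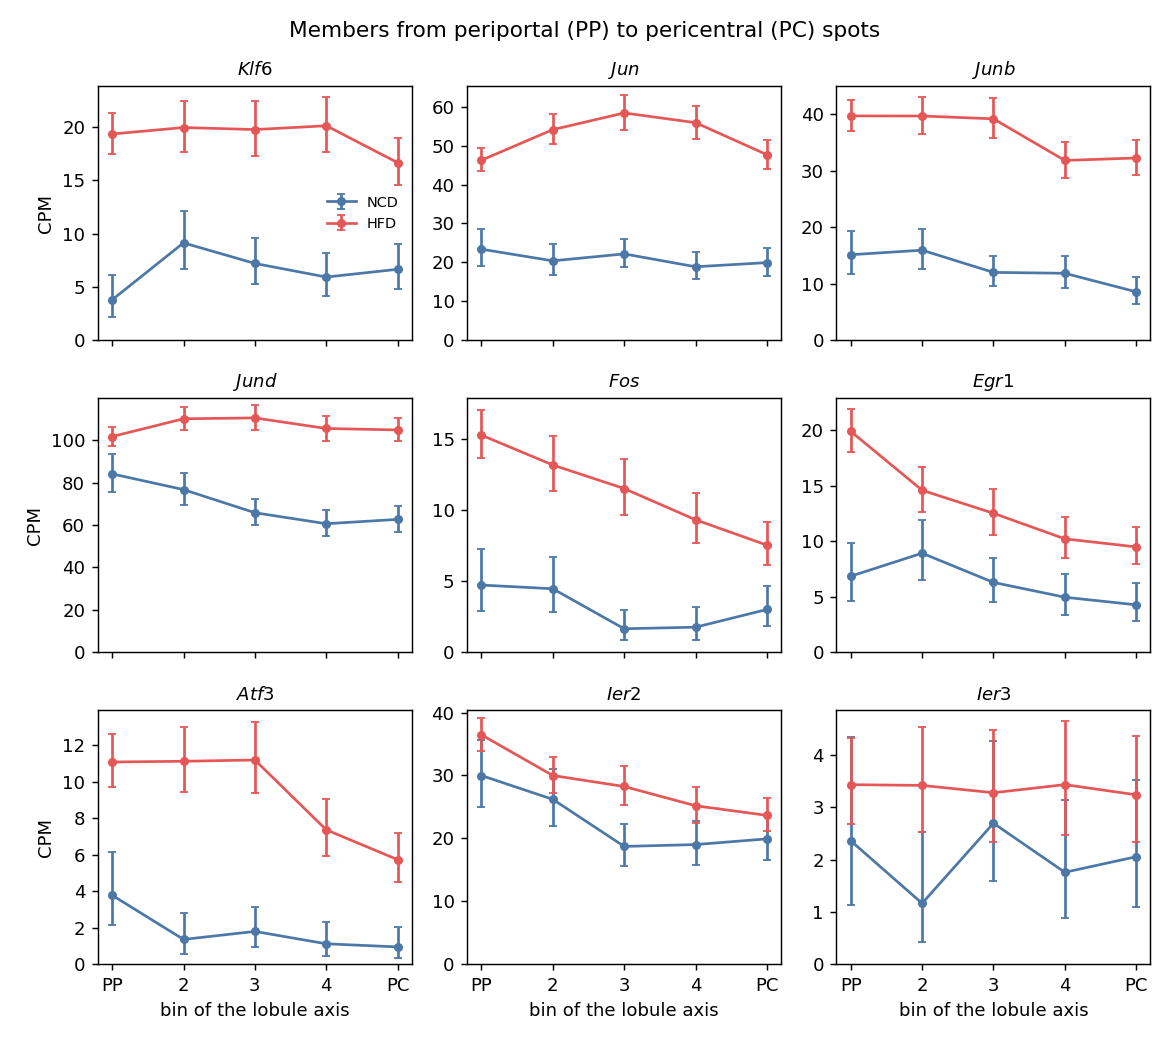
CPM of each member (vertical axis, from 0) in 5 equal bins of spots from periportal (PP) to pericentral (PC) in the NCD and HFD sections, with 95% counting intervals. In HFD, *Fos* and *Egr1* fall in every step and *Atf3* falls after the third bin, while *Jun* and *Jund* are as high at one end as at the other.

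In each of the 5 bins all 9 members had a higher level in HFD than in NCD. The choice of the members used this contrast and no share of all genes is given by bin, so nothing is read from this count. Counted from the periportal end, the interval held 0 for *Ier3* in bins 1, 3, 4 and 5 and for *Ier2* in bins 2 and 5. For the summed members the log2 ratio of HFD to NCD was 0.75 in the most periportal bin, 0.85, 1.09 and 1.10 in the next 3, and 0.97 in the most pericentral bin. For *Jun* it ranged from 0.99 to 1.57 and for *Junb* from 1.32 to 1.92. *Klf6* showed its largest ratio at the periportal end, 2.36 with 16 UMIs in NCD and 400 in HFD, against 1.13 to 1.77 in the other bins.

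Members were then followed in spots rich in the transcripts of particular cells. For each list of markers, the 10% of spots with the highest marker share among spots of at least 3000 UMIs (211 of 2107 in NCD, 354 of 3538 in HFD) were set against the rest of the same section. Spots of one section are no replicates of a diet. Marker-rich spots also differed in depth from the rest. For smooth muscle markers the median was 7758 UMIs in rich spots and 10077.5 elsewhere in NCD, and 13911.5 and 19227 in HFD. For bile duct markers in NCD it was 7093 and 10210.5, whereas spots rich in T cell markers were deeper there, at 11449 and 9543. The part of depth in the ratios below was not tested.

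Smooth muscle transcripts (*Acta2*, *Tagln*, *Myh11* and 5 others) were used as markers of vessel walls, although the authors read *Acta2* as a fibrosis marker. Spots rich in these transcripts held more of most members in both sections. In NCD, *Fos* stood at 7.73 CPM in these spots and 2.42 elsewhere, a log2 ratio of 1.67 (0.78 to 2.49) from 16 UMIs. *Klf6* stood at 16.4 and 6.15 (1.42, 0.84 to 1.96), *Egr1* at 14.01 and 5.56 (1.33, 0.70 to 1.92) and *Junb* at 22.2 and 11.6 (0.93, 0.45 to 1.39). In all, 7 of 9 members were at least 1.5-fold higher there, against 10.3% of 8810 genes, although *Fos*, *Atf3* and *Ier3* were under 100 UMIs. This was not particular to smooth muscle. In NCD spots rich in stellate cell and fibroblast markers, 6 of 9 members were past 1.5-fold, against 14.2% of genes. In those rich in vessel endothelial markers, 5 of 9 were, against 12.6%. Leukocyte lists were alike in part. Spots rich in T cell markers had 5 of 9, against 6.94%, and those rich in B and plasma cell markers 4 of 9, against 8.27%. Monocyte markers gave 3 of 9, against 6.25%, Kupffer cell markers 1 of 9, against 5.95%, and neutrophil markers 0 of 9, against 1.09%. The 3 members under 100 UMIs are included in these counts.

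In HFD, 4 of 9 members were at least 1.5-fold higher in the spots rich in smooth muscle transcripts, against 10.6% of 11380 genes. They were *Klf6*, at 30.0 CPM in these spots and 18.2 elsewhere (log2 ratio 0.73, 0.49 to 0.95), *Egr1* at 22.2 and 13.3 (0.73, 0.46 to 1.00), *Atf3* at 14.8 and 8.99 (0.72, 0.39 to 1.04) and *Ier3* at 6.04 and 3.10 (0.96, 0.42 to 1.47). *Jun* was near level in both sections. It stood at 51.2 in these spots and 51.8 elsewhere in HFD (-0.02, -0.19 to 0.15), and at 19.8 and 21.0 in NCD (-0.09, -0.58 to 0.37). Intervals also held 0 for *Fos* in HFD, at 14.5 and 11.6 (0.33, -0.007 to 0.64), and for *Atf3* and *Ier3* in NCD. For *Klf6* the ratio in HFD was 0.72 when 3 equal parts of the lobule axis were compared separately and combined, and 0.61 without spots also rich in lipid macrophage or bile duct markers. Of the HFD spots rich in smooth muscle transcripts, 33.3% were also rich in stellate cell and fibroblast markers and 32.2% in vessel endothelial markers. In HFD spots rich in stellate cell and fibroblast markers, 1 of 9 members was past 1.5-fold, against 11.7% of genes, and *Klf6* stood at 0.55 (0.32 to 0.77). In those rich in vessel endothelial markers, 0 of 9 were, against 10.1%.

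Lipid-associated macrophages carry *Gpnmb* and *Trem2* and gather in fatty liver. In HFD spots rich in their 7 markers, *Ier3* stood at 7.30 CPM against 2.91 elsewhere (log2 ratio 1.33, 0.85 to 1.78) and *Atf3* at 17.4 against 8.62 (1.02, 0.72 to 1.298). The other 7 members were under 1.5-fold, among them *Klf6* at 25.4 and 18.5 (0.46, 0.23 to 0.69) and *Fos* at 13.1 and 11.7 (0.16, -0.17 to 0.47). The 2 of 9 members past 1.5-fold compare with 9.01% of all genes. These spots shared 20.3% of their number with those rich in smooth muscle transcripts. Without spots also rich in smooth muscle, stellate cell or bile duct markers, 212 spots remained, and the log2 ratio was 0.98 for *Atf3* and 0.65 for *Ier3*. In NCD, *Fos* (1.304, 0.23 to 2.24, 11 UMIs) and *Egr1* (0.82, 0.03 to 1.53) were the 2 members past 1.5-fold, against 9.78% of genes, but without the spots also rich in the other lists they stood at -0.10 and -0.43.

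Bile duct markers (*Epcam*, *Krt19*, *Sox9* and 5 others) marked the periportal end of the axis, at 501 CPM in the most periportal HFD bin and 181 in the most pericentral one. A single gene of the 8 made 187 of their 301 CPM in HFD and 81.5 of 134 in NCD. Of the HFD spots rich in these markers, 30.8% were also rich in acute phase genes and 25.4% in smooth muscle transcripts. In HFD spots rich in bile duct markers, *Egr1* (log2 ratio 0.65, 0.42 to 0.89), *Atf3* (0.64, 0.34 to 0.92) and *Fos* (0.61, 0.35 to 0.87) were at least 1.5-fold higher, 3 of 9 members against 7.55% of all genes. Combined over 3 equal parts of the lobule axis, the ratios were 0.35, 0.49 and 0.36, all below the values without that split. In NCD, 7 of 9 members were at least 1.5-fold higher in spots rich in bile duct markers, against 9.08% of genes, with *Fos* (1.73, 0.84 to 2.55) and *Egr1* (1.20, 0.54 to 1.81) among them and *Jun* at 0.01 (-0.48 to 0.46).

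Spots rich in sinusoidal endothelial transcripts held less of several members in HFD. *Egr1* stood at 8.45 CPM in them and 14.6 elsewhere (log2 ratio -0.79, -1.23 to -0.38), and *Fos* at 7.62 and 12.2 (-0.68, -1.14 to -0.25). These were the 2 of 9 members at least 1.5-fold lower, against 2.85% of all genes. The endothelial markers rose from 254 to 394 CPM from the periportal to the pericentral end, and combined over 3 equal parts of the axis the log2 ratios were -0.49 and -0.40.

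Lipid droplet genes (*Plin2*, *Cidea*, *Cidec* and 3 others) separated the members in HFD. In spots rich in them, *Ier3* stood at 5.61 CPM and 3.13 elsewhere (log2 ratio 0.84, 0.28 to 1.36) and *Jun* at 60.4 and 51.0 (0.24, 0.09 to 0.40), whereas *Fos* stood at 7.69 and 12.2 (-0.67, -1.12 to -0.25) and *Egr1* at 9.29 and 14.6 (-0.65, -1.06 to -0.26). Thus 1 of 9 members was at least 1.5-fold higher, against 2.72% of all genes, and 2 of 9 at least 1.5-fold lower, against 4.28%. With spots assigned by a single marker UMI at equal depth, *Jun* turned to -0.10. Combined over 3 equal parts of the axis, *Ier3* had a log2 ratio of 0.98 and *Jun* of 0.27, while *Fos* and *Egr1* both came to -0.22. In NCD, 0 of the *Ier3* UMIs lay in the 211 spots rich in lipid droplet genes, and no ratio is given.

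In Kupffer cell-rich spots of HFD, marked by *Clec4f*, *Vsig4*, *Timd4* and 4 others, 0 of 9 members reached 1.5-fold in either direction, against 4.15% of genes higher and 3.05% lower. *Ier2* was the member with an interval below 0, at -0.50 (-0.76 to -0.26).

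**Figure D3:**
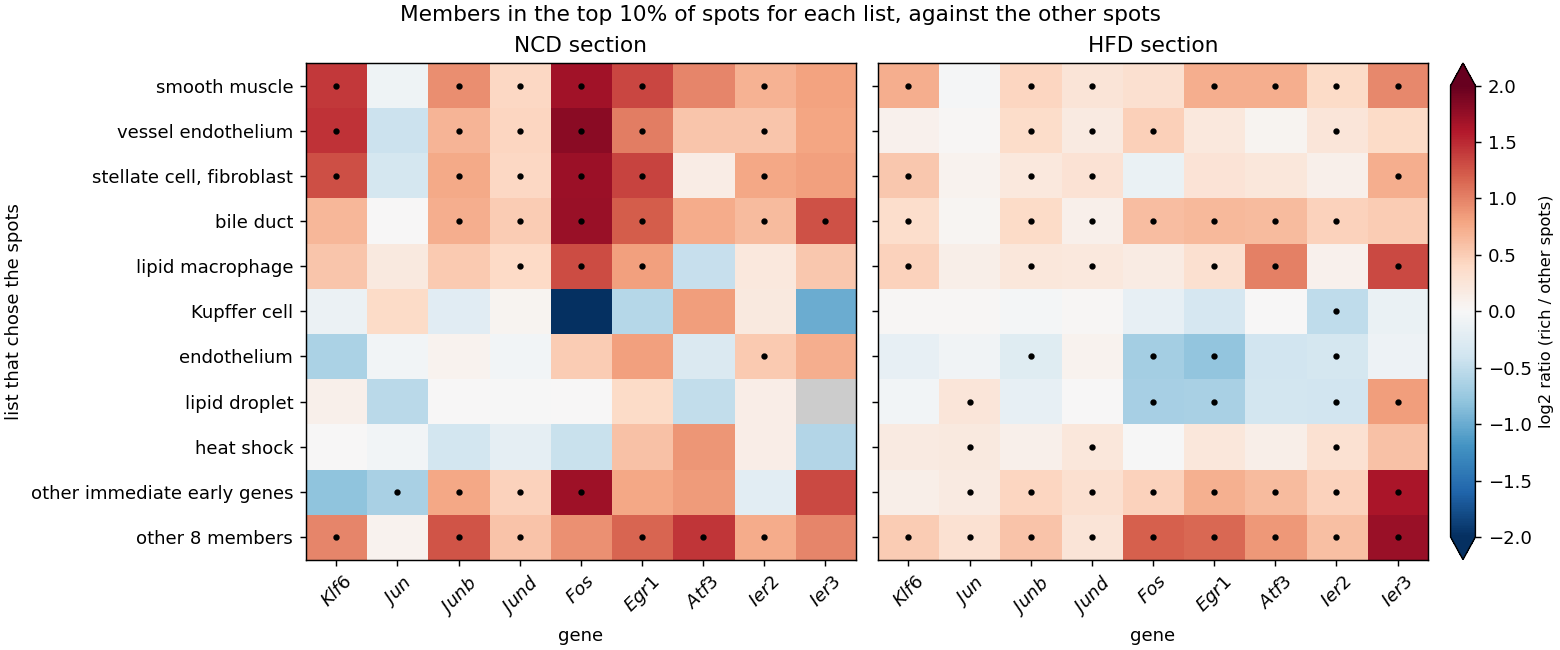
Log2 ratio (colour) of each member (columns) in the 10% of spots richest in each list (rows) to the other spots of the same section, for NCD and HFD, with a dot where the 95% counting interval leaves out 0, grey where a count was 0 and the darkest colours for values beyond 2. *Jun* stays near 0 in the HFD rows for smooth muscle and bile duct, where *Egr1* and *Atf3* are high, and *Ier3* and *Atf3* have their highest cell type value in HFD in the lipid macrophage row.

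Spots were also ranked by the members themselves, leaving out the member described. In HFD, spots in the top 10% for the other 8 members held more of every member. The log2 ratio was 1.72 (1.26 to 2.17) for *Ier3*, 1.19 (0.93 to 1.45) for *Fos* and 1.15 (0.90 to 1.39) for *Egr1*, and lowest for *Jun* at 0.31 (0.16 to 0.46) and *Jund* at 0.26 (0.15 to 0.36). In NCD the interval left out 0 for 6 of the 9, with *Junb* at 1.25 (0.78 to 1.69) and *Egr1* at 1.16 (0.46 to 1.80), and *Jun* stood at 0.07 (-0.43 to 0.53). No share of all genes is given for spots chosen in this way, so nothing is read from these counts of members.

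Correlations of single genes across spots were weak. Over the 3538 HFD spots of at least 3000 UMIs, which share 1 library, 34 of the 36 pairs of members had a positive correlation of their Pearson residuals, with a median of 0.0544 and a highest value of 0.142 for *Fos* and *Ier2*. Over 2107 NCD spots, 26 of 36 pairs were positive, with a median of 0.0207 and a highest value of 0.0945 for *Fos* and *Egr1*. Among the 5433 genes with at least 1000 UMIs in HFD, the 3 most like *Fos* were *Ier2*, *Egr1* (0.126) and *Junb* (0.111), all members. The genes most like *Atf3* were the metallothionein *Mt1* (0.189), *Actg1* (0.155) and *Mt2* (0.152). Those most like *Egr1* were *Igfbp1* (0.171), *Hpx* (0.140) and *Ahsg* (0.139), which are made by hepatocytes.

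*Ier3* was most like *Mt1* (0.145), *Igfbp1* (0.134) and *Tubb2a* (0.128). *Klf6* was most like *Cd74* (0.116), *Cst3* (0.106) and *Tmsb10* (0.102), the first of them a gene of antigen-presenting cells. *Junb* was most like *Crip1* (0.138), *Mt1* (0.122) and *Gsn* (0.117), *Jund* like *S100a6* (0.158), *Dpt* (0.154) and *Gsn* (0.152), *Ier2* like *Egr1* (0.119), *Gpx3* (0.107) and *Ahsg* (0.107), and *Jun* like *Ly6d* (0.0903), the small heat shock gene *Hspb1* (0.0835) and *Gpx4* (0.0833). In NCD, over 2586 genes, *Tmsb10* was the closest gene of *Fos* (0.160), *Egr1* (0.147), *Ier2* (0.154) and *Jund* (0.195), and *H2-Aa* that of *Junb* (0.230) and *Atf3* (0.113). *Tmsb4x* was the closest gene of *Klf6* (0.217), *Tyrobp* of *Jun* (0.0950) and *Pabpc1* of *Ier3* (0.0809). At this size none of these correlations is read as a finding.

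Related genes were read from lists chosen with earlier results known. Of 42 other immediate early and stress-response genes with at least 100 UMIs, 14 were at least 2-fold higher in HFD, against 10.8% of all genes, and 0 at least 2-fold lower, against 2.06%, with a median log2 ratio of 0.74 against 0.24 for all genes. The highest were *Btg2* (2.05), which restrains proliferation, *Dusp1* (1.95), the phosphatase that switches off MAP kinases, and *Gadd45g* (1.91). The lowest were *Id2* (-0.63), *Phlda1* (-0.60) and *Plk2* (-0.55). *Egr3*, *Nr4a2*, *Nr4a3* and *Arc* were under the minimum.

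Among 16 other AP-1 and bZIP genes that passed, 0 were at least 2-fold lower in HFD, against 2.06% of all genes, and the median was 0.54. *Maff* (2.70), which encodes a small Maf protein that lacks an activation domain, and *Batf* (1.03) were at least 2-fold higher. The lowest were *Atf1* (-0.24), *Batf2* (0.01) and *Batf3* (0.05). Among 12 other KLF genes, 3 were at least 2-fold higher, against 10.8% of all genes, namely *Klf10* (2.03) and, just past 2-fold, *Klf13* (1.04) and *Klf15* (1.00). *Klf1* (-1.21), the erythroid factor, was the 1 gene at least 2-fold lower, against 2.06%, followed by *Klf12* (-0.30) and *Klf7* (-0.15). The median of the list was 0.31, against 0.24 for all genes, and the ratio of *Klf6* was 1.52. Red blood cell markers summed to 6738 CPM in NCD and 1292 in HFD.

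Genes of the signalling routes above the immediate early genes were listed next. Of 26 genes, 2 were at least 2-fold higher (*Nfkb1* 1.11 and *Mrtfa* 1.00), against 10.8% of all genes, and 1 at least 2-fold lower, against 2.06%, with a median of 0.41. The third highest was the ERK kinase gene *Mapk3* (0.94). The gene that was lower was *Egfr* (-2.42), the epidermal growth factor receptor, at 186 CPM in NCD and 34.9 in HFD, followed by *Mapk8* (-0.49), the JNK kinase that phosphorylates Jun, and *Elk4* (-0.45), a partner of serum response factor.

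Heat shock genes were also higher in HFD. Of 13 genes, 8 were at least 2-fold higher in HFD, against 10.8% of all genes, and 0 at least 2-fold lower, against 2.06%, with a median of 1.08, led by *Hspb1* (2.42), *Hspa1a* (2.40) and *Hspa1b* (2.32), and with *Hspe1* (0.16), *Hspd1* (0.22) and *Hspb8* (0.58) as the lowest. Summed, they stood at 2367 CPM in NCD and 4263 in HFD, and their part in the level of the members was not tested. Within the HFD section, spots rich in heat shock transcripts held more of *Jun* (log2 ratio 0.19, 0.03 to 0.35), *Jund* (0.22, 0.11 to 0.33) and *Ier2* (0.30, 0.09 to 0.51), and 1 of 9 members, *Ier3* (0.59, -0.04 to 1.16), reached 1.5-fold, against 2.72% of genes. The list of other immediate early genes, 46 in all, summed to 2479 CPM in HFD, of which *Errfi1* made 700 and *Cebpb* 354. Spots were ranked by this sum, so abundant genes weigh most in it. Spots rich in the other immediate early genes held more *Ier3* (1.63, 1.15 to 2.08), *Egr1* (0.72, 0.43 to 0.99) and *Atf3* (0.63, 0.27 to 0.97). These 3 of 9 members were past 1.5-fold, against 4.55% of genes, and *Klf6* stood at 0.12 (-0.17 to 0.39).

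**Figure D4:**
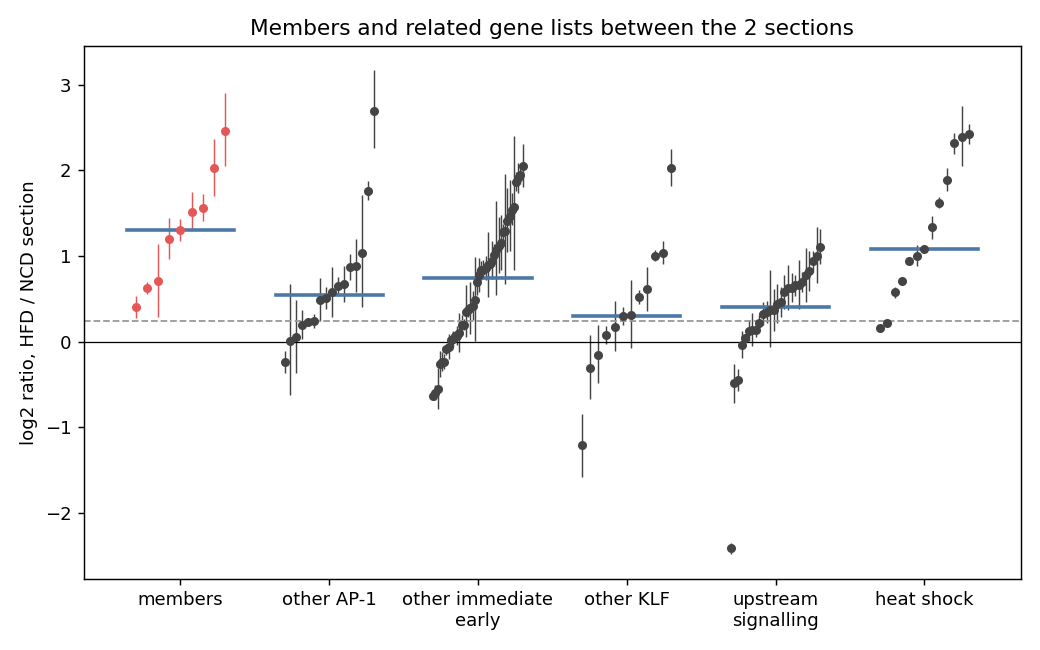
Log2 ratio of HFD to NCD of single genes (points, with 95% counting intervals) in the members and 5 related lists, for genes past the minimum of 100 UMIs, with the median of each list as a blue line and that of all genes as a dashed line at 0.24. All 9 members, whose choice used this ratio, and all 13 heat shock genes lie above 0.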

How the data were processed

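Visium libraries of 1 NCD and 1 HFD liver section were used. The deposited tables hold UMI counts per gene and spot that the authors made with Space Ranger 1.3.1 on mm10, per the labels, without normalization. Single-cell libraries, the drug-treated arm, images and spot positions were not used here. The members, gene lists and tests were chosen with earlier results of these data known, and the promoter motifs after the windows were seen. All members were described; of related lists the 3 highest and 3 lowest genes were named, and for likeness the 3 genes that correlated best. One gene that this rule names is not reported here.

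UMIs were pooled over spots and divided by the section total (CPM). Levels carry exact Poisson intervals, ratios exact conditional binomial intervals and shares Clopper-Pearson intervals, all at 95%. These cover counting error only, and no test between diets was made. Genes needed 100 UMIs. Lobule bins used spots of at least 1000 UMIs with a pseudocount of 1, and marker-rich spots (the top 10%) those of at least 3000 UMIs. Correlations used Pearson residuals (theta 100) and genes with at least 1000 UMIs. No doublet caller was run on spots. In Poisson section totals simulated for 11913 genes of the HFD to NCD comparison, 95.7% of intervals held the true ratio. The intervals assume such counts, so this checks the calculation only. Spread between spots beyond Poisson counting was not simulated. Gene positions came from GENCODE M21 (32158 of 32285 identifiers matched). Alternatives changed depth, spots, scaling, axis genes and thresholds, and 4 were added after seeing the data: marker-poor spots, equal weights of spots along the axis, leaving out spots rich in several lists, and heat shock and other immediate early genes as lists. Python 3.11.15, numpy 2.4.6, scipy 1.17.1 and pandas 2.3.3 were used.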

Additional observations from a re-analysis of the deposited data

Results flagged for a closer look

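In spots rich in the other immediate early genes, *Jun* was lower than elsewhere in NCD, with a log2 ratio of -0.65 (-1.37 to -0.01, 20 UMIs), and higher in HFD, with 0.18 (0.01 to 0.35), which is 0.83 higher in HFD. The list that chose these spots summed to 1987 CPM in NCD, of which *Errfi1* alone made 691. In spots rich in sinusoidal endothelial markers, *Ier2* was higher than elsewhere in NCD (0.53, 0.06 to 0.96, 47 UMIs) and lower in HFD (-0.35, -0.61 to -0.11), a difference of -0.88. Both are shown because the counting intervals lay on opposite sides of 0 in the 2 sections. The difference between the sections was not tested, since each diet has 1 animal.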

How the results depend on the processing

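The log2 ratio of HFD to NCD for the summed members was 0.97, and 0.66 with the mean of CPM per spot, 0.74 with spots thinned to 300 UMIs, 0.82 with off-tissue counts subtracted, 0.73 when centred on the median gene and 1.03 in marker-poor spots. The 6 members past 2-fold became 3 at 300 UMIs per spot. Single members turned sign with the mean of CPM per spot (*Egr1* -0.50, *Ier2* -0.017, *Ier3* -0.17), with off-tissue counts subtracted (*Ier2* -0.010) and at 300 UMIs (*Ier3* -0.080). The pericentral to periportal log2 ratio of the sum was -0.44 in NCD and -0.60 with the total taken without mitochondrial and the most abundant genes. The 5 members at least 1.5-fold periportal in NCD became 3 with axis genes scaled, 3 with the mean of CPM per spot and 3 without vessel and bile duct spots. In HFD the sum stood at -0.22, and at -0.16 with axis genes scaled, -0.29 with the reduced total, -0.12 without vessel and bile duct spots and 0.033 with spots thinned to 1000 UMIs, where *Junb* came to 0.21 and *Atf3* to 0.32. In smooth muscle-rich spots the sum stood at 0.61 in NCD (0.25 with the top 20% of spots, 0.31 with spots assigned by a marker UMI after thinning to 3000 UMIs) and 0.34 in HFD (0.43 with the top 5%, 0.23 with the top 20%, 0.16 by a marker UMI, 0.26 without spots also rich in other lists).

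Assignment by a marker UMI turned *Ier2* in bile duct spots (-0.076) and *Jun* (0.16) and *Jund* (-0.47) in other immediate early spots of NCD. In HFD it turned *Junb* (-0.087), *Fos* (-0.059) and *Ier2* (-0.020) in vessel endothelial spots, *Junb* (-0.033) and *Ier3* (-0.033) in stellate cell spots, *Jun* (-0.10) and *Ier2* (0.12) in lipid droplet spots, and *Jun* (-0.53), *Junb* (-1.34) and *Ier2* (-0.92) in other immediate early spots. *Jun* in NCD other immediate early spots came to 0.00124 with the top 5% of spots, and *Fos* (-0.10) and *Egr1* (-0.43) turned in NCD lipid macrophage spots without spots also rich in other lists. The cause of these changes was not tested. With 1 animal per diet no value measures the spread between animals, and the low depth of NCD limits *Fos*, *Atf3* and *Ier3* most. No paired analysis was possible because each group has 1 sample and the groups share only 1 replicate number.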
